A study of Homo sapiens with 11 samples.

Results

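The miR-23, miR-27 and miR-24 miRNAs are produced from 2 paralogous gene clusters, 1 on chromosome 19 (MIR23A, MIR27A, MIR24-2) and 1 on chromosome 9 (MIR23B, MIR27B, MIR24-1). Small RNA-seq data of 6 human tumour-derived cell lines were analysed for 8 of the 2588 mature miRNAs listed: hsa-miR-23a-3p, hsa-miR-27a-3p, hsa-miR-27a-5p and hsa-miR-24-2-5p from chromosome 19, hsa-miR-23b-3p, hsa-miR-27b-3p and hsa-miR-27b-5p from chromosome 9, and hsa-miR-24-3p, which both clusters encode. The rule takes miRNAs by name and uses no measured value, but the group was picked with earlier results of these data known. All 8 were found in every line. The lines were parental cells without knockdown: A549 (lung cancer), ES2 (ovarian cancer), MV3 (melanoma) and PANC1 (pancreatic cancer), whose libraries used 50 ng RNA and the NEXTflex kit, and BE(2)C (neuroblastoma) and HepG2 (liver cancer), whose libraries came from the provider Novogene. There were 2 libraries per line except for PANC1, which had 1 and therefore entered no test between 2 lines. All cells were harvested 48 h after seeding according to the sample characteristics, whereas the treatment protocol gives 24 h for BE(2)C. Wherever a NEXTflex line is set against a Novogene line, the effect of the line and that of the preparation cannot be told apart, so 4 pairs of lines of like preparation (A549 with ES2, A549 with MV3, ES2 with MV3, and BE(2)C with HepG2) are described first. The methods of the study call the libraries of a line biological replicates. In cultured lines, as in any bulk sample, fewer cells carrying a miRNA and less miRNA per cell cannot be told apart.

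MicroRNAs are cut from hairpin precursors. Each hairpin yields a 5p and a 3p strand, of which 1 is usually the abundant guide strand, and the guide recognizes target mRNAs mainly through its seed near the 5′ end. The hairpins of a cluster lie close together and are transcribed on a shared primary transcript, after which each is processed on its own. miR-23a/b are known repressors of glutaminase, miR-27a/b of the adipogenic factor PPARG and the ubiquitin ligase subunit FBXW7, and miR-24 of cell cycle genes such as E2F2. The cluster on chromosome 19 is reported to respond to MYC, among other factors.

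The sequences show which of these miRNAs can be told apart in short reads. They are RefSeq mature sequences (GRCh38.p14), 5′ to 3′, with the seed (bases 2 to 8) in capitals.
hsa-miR-23a-3p: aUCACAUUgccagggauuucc
hsa-miR-23b-3p: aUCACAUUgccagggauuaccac
hsa-miR-27a-3p: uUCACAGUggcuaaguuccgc
hsa-miR-27b-3p: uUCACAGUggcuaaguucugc
hsa-miR-27a-5p: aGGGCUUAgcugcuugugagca
hsa-miR-27b-5p: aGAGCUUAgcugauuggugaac
hsa-miR-24-3p: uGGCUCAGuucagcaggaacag
hsa-miR-24-2-5p: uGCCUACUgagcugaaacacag
hsa-miR-24-1-5p: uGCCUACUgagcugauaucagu
The paralogs miR-23a-3p and miR-23b-3p share the seed UCACAUU and differ, over the 21 bases they can be aligned on, only by U19A, counted from the 5′ end and with the base of the chromosome 19 paralog first. miR-23b-3p is also longer, with 23 bases. miR-27a-3p and miR-27b-3p share the seed UCACAGU and differ by C19U. A read that ends before base 19 fits both paralogs of either pair, and how the counting treated such reads is not given in the sources used here. The passenger strands are easier to separate. miR-27a-5p and miR-27b-5p differ at 8 of 22 bases, 1 of them in the seed (G3A), and miR-24-2-5p and miR-24-1-5p share a seed but differ at 6 of 22 bases near the 3′ end. The 8 members are 21 to 23 bases long, so that read counts were compared without a correction for length.

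The hairpins of the chromosome 19 cluster lie within 373 bases on the minus strand, in exons of the long non-coding RNA MIR23AHG: MIR23A (ENSG00000207980.1) at chr19:13836587-13836659, MIR27A (ENSG00000207808.1) at chr19:13836440-13836517 and MIR24-2 (ENSG00000284387.1) at chr19:13836287-13836359. Those of the chromosome 9 cluster spread over 881 bases on the plus strand, inside the protein-coding gene AOPEP: MIR23B (ENSG00000207563.1) at chr9:95085208-95085304, MIR27B (ENSG00000207864.3) at chr9:95085445-95085541 and MIR24-1 (ENSG00000284459.1) at chr9:95086021-95086088. MIR23B and MIR27B are intronic in all 7 AOPEP transcripts that span them, and 1 of the 7 has an exon overlapping MIR24-1. Coordinates are those of GRCh38.p14 and GENCODE v44, which gave the same positions for all 6 hairpins. The miR-24-3p sequence is identical at both loci, and its reads were split almost evenly between the 2 rows listed for it, with 48.4% to 50.4% on the chromosome 19 row in each library. Reads of miR-24-3p can therefore not be placed at a cluster, and cluster sums leave it out.

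Libraries held 1173902 to 12137452 miRNA reads (median 2670030). Levels are given as CPM, the reads of a miRNA per 1000000 miRNA reads of its library. The floor set for a count of 0 was 3 reads, worth 0.247 to 2.56 CPM depending on depth. miR-21-5p alone took 27.04% to 65.0% of the reads in the 7 NEXTflex libraries, and miR-148a-3p took 72.6% and 75.3% in HepG2, where the 10 most abundant miRNAs held 96.1% and 96.4%. Since CPM are shares of a library, a miRNA with most of the reads leaves less for all others, the 8 members included. The HepG2 libraries also had by far the smallest TMM (trimmed mean of M-values) scaling factors, 0.166 and 0.217 against 1.02 to 1.87 elsewhere. Of the markers listed for each origin, the neuronal miR-9-5p reached 15875 and 17555 CPM in BE(2)C and miR-124-3p 17.7 and 28.1 CPM, whereas miR-211-5p, a melanocyte miRNA, was at 0 in MV3 as in all other lines. The liver miRNA miR-122-5p was at 64.0 and 50.0 CPM in HepG2 and at 823 CPM in BE(2)C replicate 1, with 5.96 CPM in replicate 2. PANC1 had miR-216a-5p of the acinar pancreas at 0 but the muscle miRNAs miR-1-3p and miR-133a-3p at 6273 and 584 CPM. Of the blood miRNAs, miR-142-3p was at 326 and 286 CPM in ES2, whereas miR-451a was at 0.601 and 0 CPM there and miR-223-3p at 0 in both libraries. The part of these markers in the results below was not tested.

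Together the 8 miRNAs made up 1.84% to 6.84% of all miRNA reads in 9 libraries of 5 lines, but 0.203% and 0.215% in HepG2. Their levels differed among the 6 lines for 8 of 8 members (limma, adjusted p from 4.26e-07 for miR-24-3p to 7.65e-05 for miR-27a-3p), in a test that called 99.3% of the 546 miRNAs. A call across the 6 lines is thus no distinction of these miRNAs. Across the 4 NEXTflex lines alone, again 8 of 8 were called, beside 85.4% of 453 miRNAs.

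**Figure D1:**
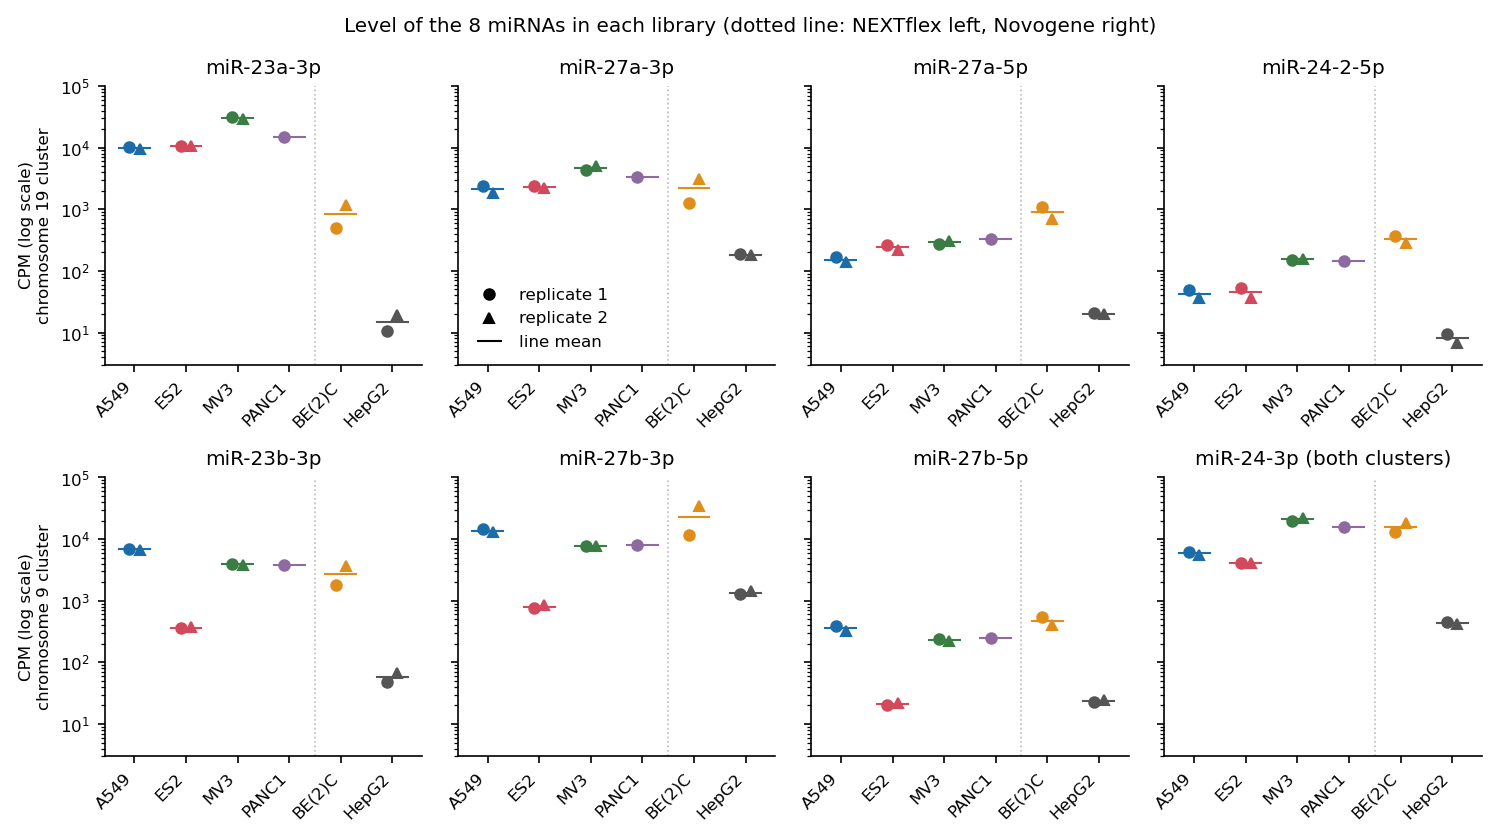
Level of each of the 8 miRNAs in every library, in CPM on a log axis, with replicate 1 as circles, replicate 2 as triangles and the line mean as a bar. The chromosome 19 products are in the upper row and the chromosome 9 products and miR-24-3p in the lower row. ES2 sits low for miR-23b-3p (356 and 375 CPM), miR-27b-3p and miR-27b-5p, while HepG2 has the lowest CPM for the chromosome 19 products and miR-24-3p. The order of the lines changes in part with TMM factors.

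Orders and overlaps of levels are given in CPM, and some changed with TMM factors. On chromosome 19, miR-23a-3p was the most abundant product in the NEXTflex lines. hsa-miR-23a-3p was at 31785 and 29182 CPM in MV3, 15116 CPM in PANC1, 10462.5 and 10790 CPM in ES2, 10295 and 9614 CPM in A549, 495 and 1192 CPM in BE(2)C and 10.8 and 19.1 CPM in HepG2. No neighbours in that order overlapped, and the mean of MV3 was 2040-fold that of HepG2, a comparison across preparations. hsa-miR-27a-3p, a neighbour on the same transcript, covered a smaller range. Its levels were 4293 and 4959.7 CPM in MV3, 3326 CPM in PANC1, 2377 and 2181 CPM in ES2, 2401 and 1851 CPM in A549, 1243 and 3113 CPM in BE(2)C and 186 and 179 CPM in HepG2. ES2, BE(2)C and A549 overlapped for miR-27a-3p, and the BE(2)C replicates were 2.51-fold apart.

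The passenger strands of chromosome 19 followed another order. hsa-miR-27a-5p was highest in BE(2)C (1074 and 704 CPM), followed by PANC1 (325 CPM), MV3 (272 and 309 CPM), ES2 (261 and 221 CPM), A549 (166 and 140 CPM) and HepG2 (20.7 and 19.7 CPM), with no overlap between neighbours. hsa-miR-24-2-5p, the passenger strand of MIR24-2, was likewise highest in BE(2)C with 365 and 285 CPM and lowest in HepG2 with 9.34 and 6.84 CPM. It lay at 150 and 157 CPM in MV3, 145 CPM in PANC1, 53.5 and 36.6 CPM in ES2 and 49.4 and 36.4 CPM in A549, where the last 2 lines overlapped. With TMM factors HepG2 was not the lowest line for miR-24-2-5p. The means were then 43.9 in HepG2, 40.7 in A549 and 34.1 in ES2, with overlapping libraries. For miR-27a-5p, MV3 (149 to 165) and A549 (127 to 162) overlapped under these factors.

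The 3 chromosome 9 products had a common low point in ES2 among the NEXTflex lines. hsa-miR-23b-3p was at 7036 and 6575 CPM in A549, 4017 and 3787 CPM in MV3, 3764 CPM in PANC1, 1775 and 3619 CPM in BE(2)C, 356 and 375 CPM in ES2 and 48.2 and 68.5 CPM in HepG2. Neighbouring lines did not overlap in CPM, but the single PANC1 library lay just below MV3. With TMM factors PANC1 (2133) fell within the MV3 range (2021 to 2203), and the HepG2 mean (303) lay above that of ES2 (277). hsa-miR-27b-3p, the most abundant chromosome 9 product in each library, was at 14411 and 13055 CPM in A549, 7754 and 7861 CPM in MV3, 8124 CPM in PANC1 and 771 and 843 CPM in ES2. In the Novogene lines it was at 11559 and 34186 CPM in BE(2)C, a range that takes in A549, and at 1276 and 1420 CPM in HepG2. hsa-miR-27b-5p repeated the order of miR-27b-3p on a lower scale, with 545 and 399 CPM in BE(2)C, 392 and 321 CPM in A549, 248 CPM in PANC1, 241 and 219 CPM in MV3, 22.5 and 24.1 CPM in HepG2 and 20.4 and 21.8 CPM in ES2. Over the 6 line means, the levels of these strands of the MIR27B hairpin had a Pearson r of 0.991 on the log2(CPM + 1) scale, and each was the miRNA most like the other among 545 others. For the strands of MIR27A, r was 0.833. There miR-27a-5p ranked 98 in likeness to miR-27a-3p, and miR-27a-3p ranked 49 in likeness to miR-27a-5p. With 6 points, these values are a description. The line means also average over the BE(2)C replicates, between which miR-27b-3p rose 2.96-fold and miR-27b-5p fell 1.37-fold. With TMM factors the miR-27b-3p mean of HepG2 (7111) exceeded those of PANC1 (4604) and MV3 (4223).

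hsa-miR-24-3p, the guide strand of both MIR24 hairpins, was at 19919.9 and 21782 CPM in MV3, 15689 CPM in PANC1, 13099 and 18224 CPM in BE(2)C, 6249.7 and 5629.7 CPM in A549, 4052 and 4134 CPM in ES2 and 457 and 417 CPM in HepG2. PANC1 lay within the range of BE(2)C, and the other neighbours did not overlap.

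Among lines of like preparation, A549 and ES2 differed in the chromosome 9 products and hardly in those of chromosome 19. All 3 chromosome 9 products were 16.9- to 18.6-fold higher in A549 by the line means, whereas the 3 chromosome 19 products miR-23a-3p, miR-27a-3p and miR-24-2-5p lay within 0.933- to 0.953-fold of ES2. On the log2(CPM + 1) scale, A549 exceeded ES2 by 4.22 ± 0.32 (SE) for miR-23b-3p, by 4.09 ± 0.43 for miR-27b-3p and by 4.01 ± 0.21 for miR-27b-5p, with limma adjusted p of 2.36e-05, 0.000124 and 5.41e-06. The differences of the chromosome 19 guide strands were −0.09 ± 0.40 for miR-23a-3p (adjusted p = 0.889) and −0.11 ± 0.38 for miR-27a-3p (adjusted p = 0.854), smaller than their standard errors. For miR-24-2-5p the difference was −0.06 ± 0.29 (adjusted p = 0.902). miR-27a-5p was lower in A549, by −0.66 ± 0.23 (adjusted p = 0.0495), and miR-24-3p was higher, by 0.54 ± 0.18 (adjusted p = 0.0391). In all, 5 of 8 members were called, 4 higher and 1 lower in A549, beside 50.5% of all 546 miRNAs. The median difference was 0.24 over the members and −0.17 over all miRNAs tested. The 3 chromosome 9 calls held under each of 9 other ways of processing (3.79 to 5.09 on the log2 scale) and on leaving out any library, but those of miR-27a-5p and miR-24-3p were lost on leaving out any library of A549, ES2, MV3 or HepG2, and that of miR-27a-5p also without PANC1. The call of miR-27a-5p was lost as well under 6 of the 9 other ways, with −0.34 under TMM factors and −0.005 with DESeq2, and that of miR-24-3p with no filter on low values (adjusted p = 0.0927). With TMM factors 4 members were called, all higher in A549, beside 47.3% of all miRNAs. Under these factors miR-23a-3p (0.22), miR-27a-3p (0.20) and miR-24-2-5p (0.25) turned slightly higher in A549, still without a call.

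**Figure D2:**
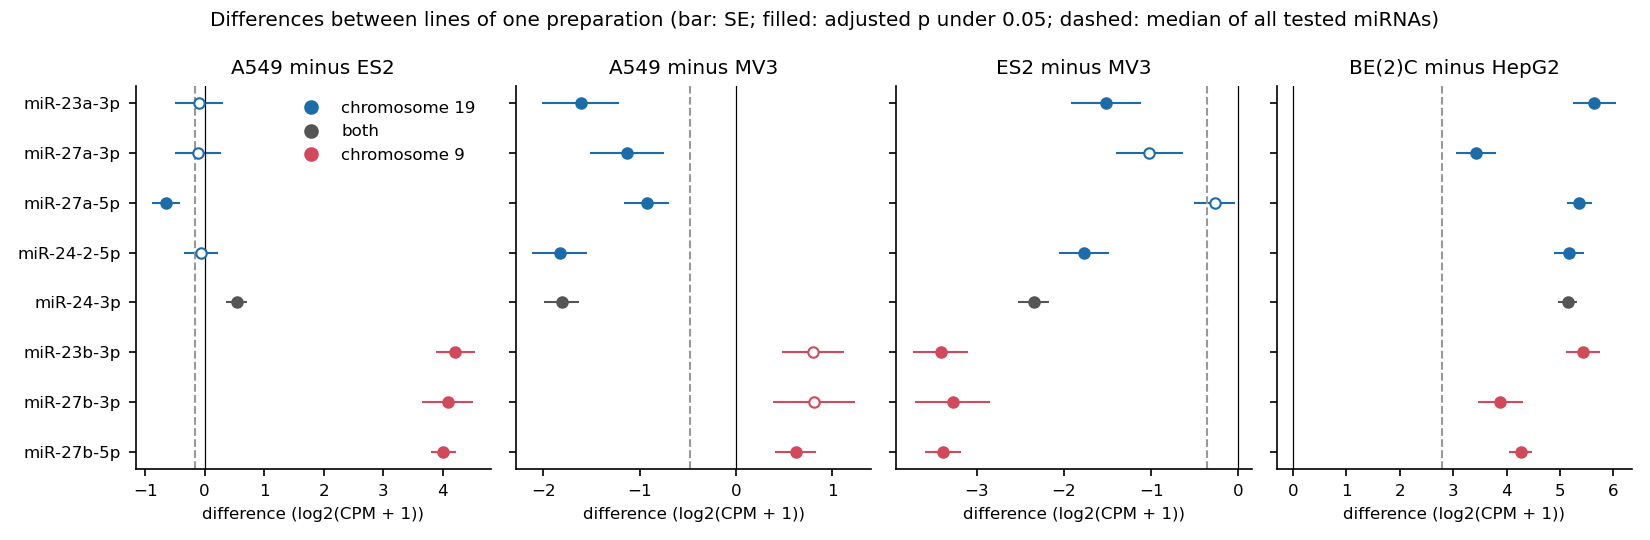
Difference of each of the 8 miRNAs in the 4 pairs of lines of like preparation, as log2(CPM + 1) of the first line minus the second, with bars for the SE and filled points for an adjusted p under 0.05 in limma. In A549 minus ES2 the chromosome 9 products (red) lie between 4.01 and 4.22 and the chromosome 19 products (blue) between −0.66 and −0.06, and the dashed line marks the median of all 546 miRNAs.

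MV3 exceeded ES2 for products of both clusters, and by more for chromosome 9. Differences of ES2 minus MV3 were −3.41 ± 0.32 for miR-23b-3p (adjusted p = 0.000169), −3.27 ± 0.43 for miR-27b-3p (0.000953) and −3.39 ± 0.21 for miR-27b-5p (3.01e-05), or 9.68- to 10.9-fold between line means. From chromosome 19, miR-23a-3p differed by −1.52 ± 0.40 (adjusted p = 0.0240) and miR-24-2-5p by −1.77 ± 0.29 (0.00271). The values of miR-27a-3p (−1.02 ± 0.38, adjusted p = 0.0777) and miR-27a-5p (−0.27 ± 0.23, adjusted p = 0.442) did not pass the test, and the sign for miR-27a-5p turned with TMM factors (0.21). miR-24-3p was lower in ES2 by −2.35 ± 0.18 (adjusted p = 6.09e-05). So 6 of 8 members were lower in ES2, beside 32.8% of all miRNAs called in either direction, and the median difference was −2.06 over the members and −0.36 over all miRNAs. The call of miR-23a-3p was lost with TMM factors (−1.03, adjusted p = 0.0558) and on leaving out either ES2 or either MV3 library, and miR-27a-3p was called in a fit of the NEXTflex lines alone (adjusted p = 0.00640).

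Between A549 and MV3 the clusters lay on opposite sides by sign, but only 1 chromosome 9 product was called. The 4 chromosome 19 products were lower in A549: miR-23a-3p by −1.61 ± 0.40, miR-27a-3p by −1.13 ± 0.38, miR-27a-5p by −0.92 ± 0.23 and miR-24-2-5p by −1.83 ± 0.29, with adjusted p between 0.00119 and 0.0366. miR-24-3p was lower as well, by −1.81 ± 0.18 (adjusted p = 0.000112). From chromosome 9, miR-27b-5p was higher in A549 by 0.62 ± 0.21 (adjusted p = 0.0371). That call was lost with the deposited values (limma adjusted p = 0.0518) and with no filter on low values. It was also lost on leaving out any library of A549, ES2, MV3 or HepG2. The difference stayed positive, at 0.48 to 0.77 on leaving out each library. The values of miR-23b-3p and miR-27b-3p were 0.80 ± 0.32 and 0.81 ± 0.43, without a call (adjusted p = 0.0657 and 0.144). With 6 of 8 members called (1 higher, 5 lower in A549), the share was read beside 57.3% of all miRNAs, and the median over the members was −1.03 against −0.47 over all. Calls of this pair changed with the scaling. With TMM factors 3 members were called higher and 2 lower in A549, beside 48.0% of all miRNAs. There miR-23b-3p and miR-27b-3p were called (1.60 and 1.61, adjusted p = 0.00168 and 0.0110), whereas miR-23a-3p (−0.81), miR-27a-3p (−0.33) and miR-27a-5p (−0.13) were not. With DESeq2 miR-27a-5p turned to 0.15. Leaving out A549 replicate 2 reduced the members called to 2, and leaving out either MV3 library reduced them to 3. All 8 were called without either BE(2)C library and in a fit of the NEXTflex lines alone.

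BE(2)C exceeded HepG2 for 8 of 8 members, beside 83.0% of all miRNAs called. If the harvest times of the treatment protocol hold (24 h for BE(2)C, 48 h for HepG2), line and harvest time cannot be told apart. Differences ran from 3.42 ± 0.38 for miR-27a-3p (adjusted p = 6.48e-05) to 5.64 ± 0.40 for miR-23a-3p (4.56e-06), with 5.14 ± 0.18 for miR-24-3p (1.42e-07). The line means of the members were 11.9- to 56.4-fold apart. Of these, the difference of miR-27b-3p was 4.67 without BE(2)C replicate 1 and 3.10 without replicate 2, that of miR-27a-3p 4.09 and 2.76, and that of miR-23a-3p 6.28 and 5.01, with 8 members called in each case. The median over the members was 5.15, but the median over all 546 miRNAs was itself 2.79 on this scale, and with TMM factors the medians were 2.22 and 0.49. Under TMM 6 members remained called, all higher in BE(2)C, beside 64.3% of all miRNAs. Then miR-27a-3p (0.42, adjusted p = 0.353) and miR-27b-3p (0.87, adjusted p = 0.0853) were not called. With quantile normalization the difference of miR-27a-3p was −0.03 and 5 members were called, beside 70.7% of all miRNAs.

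In the 6 pairs that span both preparations the line and the preparation cannot be told apart, and only counts are given. Against BE(2)C, 5 members were called in A549 (2 higher and 3 lower in A549, beside 76.7% of all miRNAs), 7 in ES2 (1 higher and 6 lower in ES2, beside 77.5%) and 6 in MV3 (2 higher and 4 lower in MV3, beside 78.0%). miR-23a-3p was higher in A549, ES2 and MV3 than in BE(2)C and miR-27a-5p was lower, in spite of their common cluster. Against HepG2, 8 members were higher in A549 (beside 67.6% of all miRNAs called), 6 in ES2 (beside 60.8%) and 8 in MV3 (beside 69.6%), and none was called lower. With TMM factors these counts fell to 5, 3 and 5, beside 69.0%, 61.2% and 63.7% of all miRNAs. Of the 3 called in ES2 then 1 was higher and 2 were lower than in HepG2.

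The relation of the clusters was next read within each library, as the share of reads that came from the chromosome 19 paralog, which does not depend on scaling between libraries. For miR-23-3p, the chromosome 19 paralog made up 96.7% and 96.6% in ES2, 88.8% and 88.5% in MV3, 80.1% in PANC1 (95% Wilson interval 79.9% to 80.2%), 59.4% in both A549 libraries, 21.8% and 24.8% in BE(2)C and 18.3% and 21.8% in HepG2. All 4 NEXTflex lines thus had more miR-23a-3p than miR-23b-3p and both Novogene lines less. For miR-27-3p the order was similar but the level was lower. The share of miR-27a-3p was 75.5% and 72.1% in ES2, 35.6% and 38.7% in MV3, 29.0% in PANC1, 14.3% and 12.4% in A549, 12.7% and 11.2% in HepG2 and 9.71% and 8.35% in BE(2)C. ES2 was the only line in which miR-27a-3p exceeded miR-27b-3p.

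**Figure D3:**
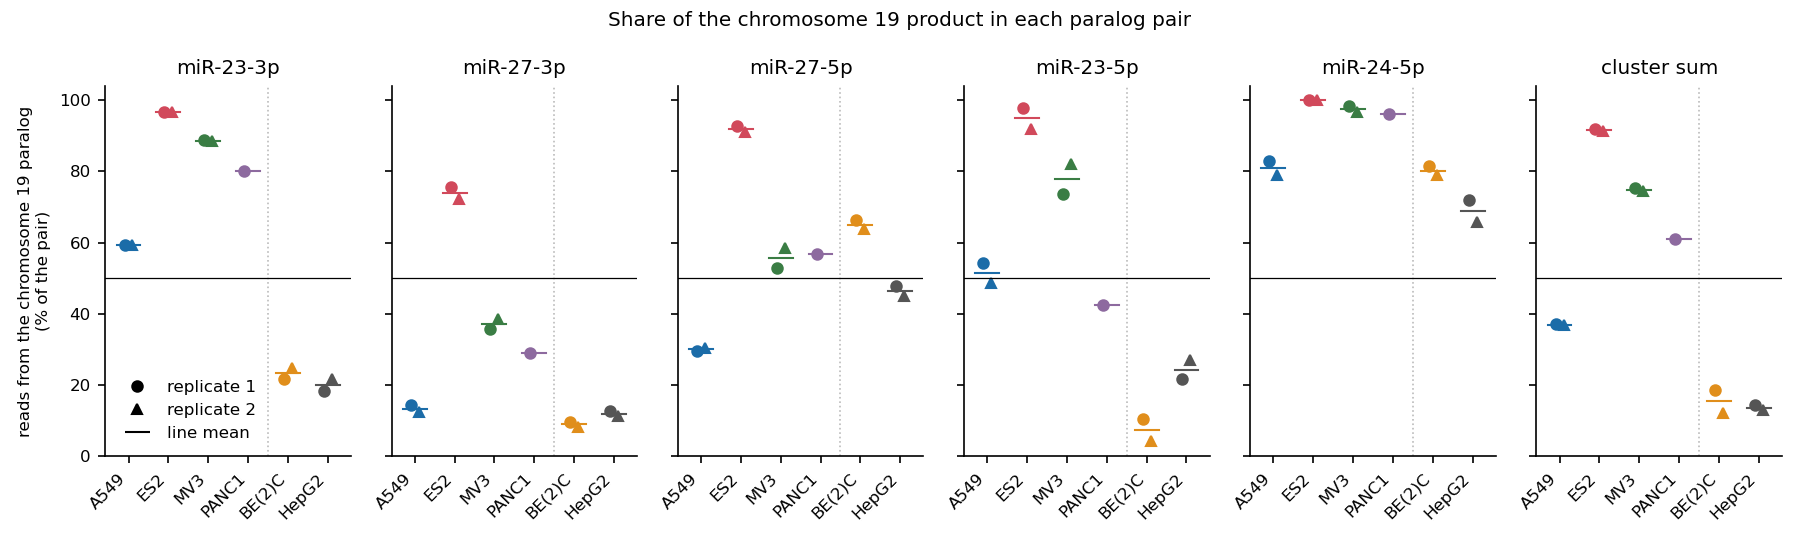
Share of the reads of each paralog pair that came from chromosome 19, in percent, for every library (circles and triangles) with the line mean as a bar, where the horizontal line marks equal reads. ES2 has the highest share in all panels, and BE(2)C lies at 66.3% and 63.8% for miR-27-5p but at 9.71% and 8.35% for miR-27-3p.

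Expressed as a log2 ratio, miR-23a-3p over miR-23b-3p was 4.86 ± 0.02 (SD, n = 2) in ES2, 2.96 ± 0.03 in MV3, 2.01 in PANC1 and 0.55 ± 0.00 in A549, and −1.72 ± 0.17 in BE(2)C and −2.00 ± 0.23 in HepG2. The lines differed more than their replicates (exact permutation of the libraries over lines, with 10395 assignments and the F statistic, p = 0.000192, adjusted over 9 ratios 0.000866). Within the NEXTflex lines, where 105 assignments exist, p was 0.00952, the smallest possible (adjusted p = 0.0286). miR-27a-3p over miR-27b-3p ran from 1.498 ± 0.18 in ES2 over −0.76 ± 0.13 in MV3, −1.29 in PANC1 and −2.70 ± 0.16 in A549 to −2.88 ± 0.15 in HepG2 and −3.34 ± 0.17 in BE(2)C, with the same adjusted exact p as the miR-23 pair in both sets of lines. The order ES2, MV3, PANC1, A549 was therefore common to both pairs. The ratio was higher for miR-23 than for miR-27 in all 6 lines, and the gap was 3.25 to 3.72 log2 units in the 4 NEXTflex lines, 1.61 in BE(2)C and 0.89 in HepG2.

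The passenger strands gave a further reading. miR-27a-5p made up 92.7% and 91.0% of miR-27-5p reads in ES2, 53.0% and 58.4% in MV3, 56.7% in PANC1 and 29.7% and 30.3% in A549, but 66.3% and 63.8% in BE(2)C and 48.0% and 44.9% in HepG2. BE(2)C, with the lowest share of chromosome 19 reads among miR-27-3p, had the second highest among miR-27-5p. The log2 ratio of the 5p pair exceeded that of the 3p pair by 4.24 in BE(2)C, 2.68 in HepG2 and 1.09 to 2.00 in the NEXTflex lines. Both Novogene lines thus lay above all NEXTflex lines, and line and preparation cannot be told apart there. Across 6 lines the 5p ratio differed with an exact permutation p of 0.000385 (adjusted 0.000866), and across the 4 NEXTflex lines with 0.0286 (adjusted 0.0514, not called).

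Other strands of the clusters were scarce but can be placed. The 5p strand of MIR24-1, miR-24-1-5p, had 0 reads in both ES2 libraries, where miR-24-2-5p had 89 and 84. The floor of 3 reads corresponds there to a chromosome 9 share of 3.37% and 3.57%. The 95% Wilson intervals of the chromosome 19 share began at 95.9% and 95.6%. The chromosome 19 share of miR-24-5p was 98.3% and 96.8% in MV3, 96.1% in PANC1, 83.0% and 78.9% in A549, 81.5% and 78.9% in BE(2)C and 72.1% and 65.9% in HepG2. So the miR-24-5p reads came mainly from chromosome 19 in every library. For miR-23-5p the chromosome 19 share was 97.8% and 92.0% in ES2, 73.5% and 82.2% in MV3, 54.3% and 48.7% in A549, 42.6% in PANC1, 10.5% and 4.40% in BE(2)C and 21.7% and 26.9% in HepG2, the last from 23 and 26 reads (95% Wilson intervals 9.66% to 41.9% and 13.7% to 46.1%). ES2 held the highest share, and PANC1 was lower than A549, unlike in the guide strands. However, the 95% Wilson interval of the 1 PANC1 library (39.8% to 45.4%) overlapped that of A549 replicate 2 (43.7% to 53.7%). These shares were not tested.

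By level, miR-23b-5p was at 1.80 and 8.28 CPM in ES2 and at 71.9 and 93.7 CPM in A549, a difference of 4.03 ± 0.52 on the log2(CPM + 1) scale (adjusted p = 0.000376). miR-23a-5p was at 80.6 and 95.4 CPM in ES2 and at 85.4 and 88.8 CPM in A549 (−0.01 ± 0.37, adjusted p = 1). The remaining related miRNAs were near the detection floor. miR-3074-5p and miR-3074-3p, encoded antisense to MIR24-1, did not exceed 7.10 CPM, and miR-23c, which has the miR-23 seed but lies on chromosome X, did not exceed 5.32 CPM.

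Summed over the products that can be placed, the chromosome 19 cluster gave 13154 and 13229 CPM in ES2, 36500 and 34608 CPM in MV3, 18912 CPM in PANC1, 12911 and 11641 CPM in A549, 3177 and 5293 CPM in BE(2)C and 227 and 225 CPM in HepG2. The chromosome 9 cluster gave 1147 and 1239 CPM in ES2, 12013 and 11867.5 CPM in MV3, 12136 CPM in PANC1, 21839 and 19951 CPM in A549, 13879 and 38204 CPM in BE(2)C and 1347 and 1513 CPM in HepG2. ES2 and A549 were thus alike in the chromosome 19 sum and apart in the chromosome 9 sum. The chromosome 19 share of both sums was 92.0% and 91.4% in ES2, 75.2% and 74.5% in MV3, 60.9% in PANC1, 37.2% and 36.8% in A549, 18.6% and 12.2% in BE(2)C and 14.4% and 12.9% in HepG2. As a log2 ratio it ranged from 3.47 ± 0.07 in ES2 to −2.66 ± 0.13 in HepG2 across the 6 lines (exact permutation p = 0.000289, adjusted 0.000866) and to −0.77 ± 0.01 in A549 across the NEXTflex lines (p = 0.00952, adjusted 0.0286).

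Ratios between neighbours within a cluster were close among the NEXTflex lines and lower in both Novogene lines. The log2 ratio of miR-23a-3p over miR-27a-3p was 2.24 ± 0.20 in A549, 2.22 ± 0.12 in ES2, 2.72 ± 0.23 in MV3 and 2.18 in PANC1, but −1.36 ± 0.04 in BE(2)C and −3.66 ± 0.62 in HepG2. The ratio of miR-23b-3p over miR-27b-3p behaved alike, with −1.01 ± 0.03 in A549, −1.14 ± 0.04 in ES2, −1.001 ± 0.07 in MV3 and −1.11 in PANC1 against −2.97 ± 0.38 in BE(2)C and −4.55 ± 0.25 in HepG2. Both differed across the 6 lines (exact permutation p = 0.00221 and 0.00212, adjusted 0.00332 for each), whereas within the NEXTflex lines neither was called (p = 0.219 and 0.210, adjusted 0.246). There the highest and the lowest line were 0.54 and 0.14 log2 units apart. Whether the gap belongs to the lines or to the preparations cannot be told apart.

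**Figure D4:**
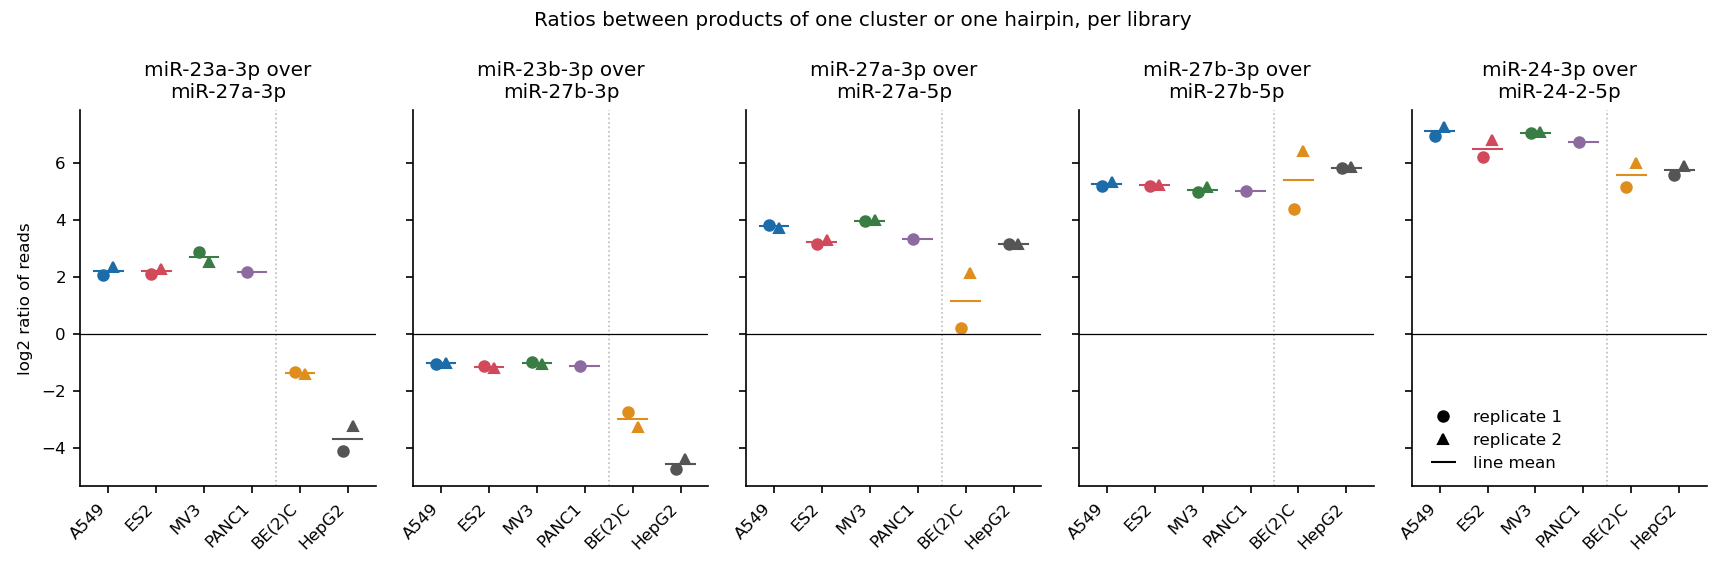
Log2 ratio of reads between 2 products of a cluster or a hairpin, per library, with the line mean as a bar and a dotted line between NEXTflex (left) and Novogene lines (right). The ratios of miR-23 over miR-27 lie between 2.18 and 2.72 (chromosome 19) and between −1.14 and −1.001 (chromosome 9) in the NEXTflex line means and lower in both Novogene lines, and the BE(2)C replicates are far apart in both ratios of miR-27 strands.

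The ratio of guide to passenger strand did not differ detectably between lines for MIR27B. The log2 ratio of miR-27b-3p over miR-27b-5p was 5.27 ± 0.10 in A549, 5.24 ± 0.03 in ES2, 5.08 ± 0.11 in MV3, 5.03 in PANC1, 5.41 ± 1.43 in BE(2)C and 5.85 ± 0.04 in HepG2 (exact permutation p = 0.840 across 6 lines and 0.219 across the NEXTflex lines). For MIR27A the ratio was lower and varied more, with 3.99 ± 0.02 in MV3, 3.79 ± 0.09 in A549, 3.36 in PANC1, 3.24 ± 0.08 in ES2, 3.17 ± 0.01 in HepG2 and 1.18 ± 1.37 in BE(2)C. It was called across the NEXTflex lines (exact permutation p = 0.0190, adjusted 0.0429) and not across all 6 (p = 0.0620, adjusted 0.0697), where it was called without PANC1 (adjusted p = 0.00408). The ratio of miR-24-3p over miR-24-2-5p was 7.12 ± 0.20 in A549, 7.08 ± 0.04 in MV3, 6.76 in PANC1, 6.52 ± 0.41 in ES2, 5.76 ± 0.22 in HepG2 and 5.58 ± 0.59 in BE(2)C, where the guide can come from either hairpin. Its differences passed across 6 lines (exact permutation p = 0.0324, adjusted 0.0417) but not across the NEXTflex lines (p = 0.295), and the first call was lost on leaving out any library of A549, MV3 or HepG2 or ES2 replicate 1 (adjusted p = 0.0533 to 0.0985).

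The BE(2)C replicates were far apart in these strand ratios. From replicate 1 to replicate 2 the guides miR-27a-3p and miR-27b-3p were 2.51- and 2.96-fold apart in one direction and the passengers miR-27a-5p and miR-27b-5p 1.53- and 1.37-fold in the other. Across the 8 members the replicates of A549, ES2 and MV3 were 1.01- to 1.46-fold apart, against a median of 1.78-fold in BE(2)C. Without BE(2)C replicate 1 the MIR27A range across 6 lines was 1.85 instead of 2.82 log2 units, and without replicate 2 it was 3.78. With either left out, BE(2)C is 1 library that adds no spread to the test, which then called both strand ratios (exact permutation p = 0.000847 for MIR27A and 0.00487 for MIR27B). miR-122-5p (823 against 5.96 CPM) and the erythroid miR-451a (299 against 46.0 CPM) also differed between the BE(2)C libraries, and their part in the spread of the strand ratios was not tested.

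Finally, the miRNAs outside the clusters with the most similar profile over the 6 line means were sought on the log2(CPM + 1) scale. The chromosome 19 sum was nearest to miR-92b-3p (Pearson r = 0.994), miR-92b-5p (0.989) and miR-374a-5p (0.988). The chromosome 9 sum was nearest to miR-664a-3p (0.923), miR-487b-3p (0.905) and miR-485-3p (0.903). With 6 points that share the preparation split and the low HepG2 levels, these values are a description.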

How the data were processed

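Small RNA-seq tables of 6 cell lines (11 libraries) were analysed. Per the labels' processing notes, cutadapt 1.14, Bowtie2 2.3.2, SAMtools 1.5, featureCounts 1.5.3, edgeR 3.30.3 and hg38 were used, with no role or order given. The values deposited by the authors for PANC1 were CPM. The other 5 tables deposited held a scaled signal, CPM divided by a TMM factor set within each table. Whole reads were recovered from all nonzero values (100% within 0.01 reads), and rows of one miRNA name were summed. The fixed design had assumed CPM throughout, so CPM were recomputed per library to a total of 1000000.

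log2(CPM + 1) was compared with limma 3.58.1 (R 4.3.3) over all 6 lines, for the 546 miRNAs that averaged 10 CPM or more in any line, with Benjamini-Hochberg adjustment and a threshold of 0.05. All 8 members passed this filter. The NEXTflex lines were also fitted alone (453 miRNAs). For 9 ratios within libraries, 0.5 reads were added to each term. Lines were compared by exact permutation tests that counted the assignments with an F statistic at least as large (NumPy 2.4.6). Wilson intervals were computed with SciPy 1.17.1. Alternatives were TMM factors, quantile normalization, deposited values, a pseudocount of 5, no filter, edgeR 4.0.16, DESeq2 1.42.0, a replicate block, a fit of 1 preparation and leaving out each library. Tests were checked on simulated data.

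Depth was 1173902 to 12137452 reads per library. Wilson intervals (95%) and floors of 3 reads cover counting error only, since reads without molecular identifiers are not independent molecules. miRNAs named were the 8 members, the other strands of their hairpins, miRNAs with the same seed, and the 3 nearest profiles per cluster sum. Members and lists were chosen with earlier results of these data known. miR-217-5p, a pancreas marker, matched no name and miR-9985, with the miR-27 seed, was not analysed here. The pancreas, liver, neuronal, melanocyte and muscle markers are given in the text. Of the epithelial markers miR-200c-3p lay between 14.5 and 83.2 CPM and miR-141-3p between 0 and 4.79 CPM, and of the blood markers miR-223-3p did not exceed 0.971 CPM.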

Additional observations from a re-analysis of the deposited data

Results flagged for a closer look

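The relation of the paralogs lay on opposite sides of an even ratio of reads in different lines, with a difference between lines by the exact permutation test (adjusted over 9 ratios), for 4 ratios. Even reads need not mean even numbers of molecules, which were not measured. The distance between the highest and the lowest line mean across 6 lines was 6.86 log2 units for miR-23a-3p over miR-23b-3p (adjusted p = 0.000866, above even in 4 lines and below in 2), 4.84 for miR-27a-3p over miR-27b-3p (above even in 1 line and below in 5), 4.71 for miR-27a-5p over miR-27b-5p (above even in 4 lines and below in 2) and 6.13 for the chromosome 19 over the chromosome 9 sum (above even in 3 lines and below in 3), with the same adjusted p for each. For miR-23 all lines above even were prepared with the NEXTflex kit and both lines below by Novogene, so that line and preparation cannot be told apart there. Within the NEXTflex lines the distance was 4.20 log2 units for miR-27a-3p over miR-27b-3p (ES2 above even, the other 3 lines below) and 4.24 for the cluster sums (A549 below even, the other 3 lines above), with an adjusted p of 0.0286 for both. No group had the 4 libraries needed to look for a library apart from its group.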

How the results depend on the processing

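Of 100 counts of members called under alternatives that keep all libraries, 89 stayed within 1.5 times of the reported count. The other 11 were 3 with no filter in A549 against ES2, 5 with quantile normalization in BE(2)C against HepG2, and, against HepG2, 5, 3 and 5 in A549, ES2 and MV3 with TMM factors, 5 in MV3 with quantile normalization, 5, 3 and 4 in A549, ES2 and MV3 with edgeR, and 3 and 5 in ES2 and MV3 with DESeq2. Of all miRNAs, 16.7% were called in the case with no filter and 58.1% to 70.7% in the rest of these cases. The cause was not tested. Leaving out libraries gave 3 to 5 members in A549 against ES2 and 2 to 8 in A549 against MV3.

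Signs turned for small differences in A549 minus ES2 under TMM, quantile, edgeR and DESeq2: miR-23a-3p was 0.22, 0.75, 0.22 and 0.56 and miR-27a-3p 0.20, 0.18, 0.22 and 0.55, and miR-24-2-5p was 0.25, 0.26 and 0.59 under TMM, edgeR and DESeq2. In ES2 minus MV3 miR-27a-5p was 0.21, 0.11, 0.22 and 0.16 under the same 4. With DESeq2 miR-27a-5p was 0.15 in A549 minus MV3, and with quantile normalization miR-27a-3p was −0.027 in BE(2)C minus HepG2. Leaving out libraries gave −0.30 to 0.076 for miR-27a-3p and −0.33 to 0.21 for miR-24-2-5p in A549 minus ES2.

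Leaving out a library leaves 45 assignments within the NEXTflex lines (15 without PANC1). For the ratios called there, adjusted p rose to 0.05 or above, with distances between the highest and the lowest line of 4.30 to 4.33 (miR-23-3p), 4.07 to 4.33 (miR-27-3p), 4.18 to 4.29 (cluster sums) and 0.69 to 0.81 (MIR27A strands). Across 6 lines distances were 1.12 to 1.95 for miR-24-3p over miR-24-2-5p, 1.85 to 3.78 for the MIR27A and 0.77 to 0.84 for the MIR27B strands.

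Replicate numbers did not pair the libraries (correlations of deviations between lines −0.05 to 0.11, 1 of 10 over 0.1). With a replicate block the members called in A549 against ES2 went from 5 to 4 (miR-24-3p, adjusted p = 0.0501), beside 50.2% of all miRNAs. With that block, the distance of 2.82 for the MIR27A strands across 6 lines had an adjusted p of 0.0449. With 0 reads of miR-24-1-5p in ES2, depth limits the chromosome 9 share of miR-24-5p there.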
